A study of Mus musculus with 12 samples.

Results

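A total of 54 genes that act in mitosis, in the spindle and in chromosome segregation were followed in mouse lung endothelial cells (MLECs), out of 28689 genes in the FPKM table of the series. They were taken as a list of symbols that covers cyclins and their kinase, mitotic kinases, the spindle checkpoint, the centromere and kinetochore, spindle motors, cytokinesis, anaphase onset, condensin and 2 transcription factors. The list itself uses no measured value, but it was drawn up with earlier results of these data known. All 54 were in the table and all 54 passed the filter on low values (1 FPKM or more in 6 or more of the 12 libraries), as did 12467 genes in all.

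The RNA-seq experiment compared 6 libraries of dKO cells with 6 libraries of CTR cells. The dKO mice carried VE-CAD-CreERT2+ with Sp1 fl/fl and Sp3 fl/fl alleles and received tamoxifen, a design meant to delete the transcription factors Sp1 and Sp3 where the VE-cadherin promoter drives the recombinase. The CTR mice were Cre-negative littermates with the same floxed alleles and the same tamoxifen, although the labels call their genotype WT. MLECs came from lungs of adult male mice, were selected with CD31 beads and again with ICAM2 beads after growth to confluence and were used after a few passages in culture. The labels do not say whether the 6 libraries of a group came from separate mice or cultures, so p-values cover only the spread between these libraries. The labels' extraction text speaks of retinas, whereas title, tissue and cell type name lung endothelial cells.

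Sp1 was 21.2 ± 1.77 FPKM in CTR and 10.6 ± 1.53 FPKM in dKO (SD, n = 6), with the highest dKO library at 12.1 FPKM and the lowest CTR library at 19.4 FPKM. Sp3 was 27.7 ± 2.31 and 25.0 ± 1.64 FPKM (SD, n = 6), and only 2 of 6 dKO libraries lay below all CTR libraries (limma adjusted p = 0.0902, exact two-sided permutation p = 0.0455 without adjustment). The dKO mean was thus 49.9% of CTR for Sp1 and 90.1% for Sp3, so whole-gene Sp3 RNA fell little in the libraries labelled dKO. FPKM of a whole gene cannot show whether part of the gene was deleted. By staining, the paper reported less Sp1 and Sp3 protein in dKO aortic endothelium. Its supplement also holds a western blot of both proteins in isolated endothelial cells from CTR and dKO mice. The outcome of that blot for Sp1 and Sp3 is not given in words. The libraries held between 15523054 and 17938286 fragments, and the mitosis genes rested on 53 to 6478 fragments per gene and library. All 12 endothelial markers were detected in every library, and all 12 were called higher in dKO. Their summed level was 211 to 348 FPKM in CTR and 391 to 528 FPKM in dKO. The summed level of 7 fibroblast markers, which include the collagen gene Col1a1, was 2130 to 2700 FPKM in CTR and 829 to 1660 FPKM in dKO, above the endothelial sum in every library, and of the 6 tested 3 were called lower and 1 higher. The summed level of 10 macrophage markers was 787 to 1330 FPKM in CTR and 2110 to 4490 FPKM in dKO, with 9 called higher and 1 lower, and that of 6 mesothelial markers was 28.8 to 38.6 and 66.3 to 146 FPKM, with 5 called higher. The 7 smooth muscle and pericyte markers summed to 549 to 1500 FPKM in CTR and 497 to 896 FPKM in dKO, above the endothelial sum in every library but dKO 4, with 2 called higher. Markers of T, B and NK cells summed to at most 0.209 FPKM in any library. In bulk libraries, fewer dividing cells and less of each RNA per dividing cell cannot be told apart, and the part of these marker differences in the results on mitosis genes was not tested.

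Cells that divide make the transcripts of mitosis in a wave that rises in G2 and ends after mitosis. Cyclin A2 and B-type cyclins activate CDK1, the kinases PLK1 and Aurora build the spindle, kinetochores tie chromosomes to microtubules, and the anaphase-promoting complex with CDC20 releases sister chromatids by way of securin and separase. The promoters of many of these genes share a pair of short elements, CCAAT boxes bound by NF-Y and the cell cycle homology region read by the DREAM and MuvB complexes, while genes of DNA replication more often carry E2F sites. The GC box is the classical binding sequence of Sp1 and Sp3.

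Promoter windows from 250 bases before to 50 bases after the annotated start were available from RefSeq (GRCm38.p6) for 45 of the 54 genes. The genes without an entry were Ccna2, Aurkb, Smc4, Kif20a, Spc24, Tpx2, Foxm1, Incenp and Cdc25c. All 48 windows of the 45 genes, of which 3 genes have 2, matched the GRCm39 genome at 1 place each. The sequences below are those of the 4 genes with the largest falls among genes with an entry, Ccnb2, Cdc20, Cenpe and Cenpf, and of Ncaph and Pttg1, which showed the smallest fall on the log2 scale and the only higher mean. Capitals mark CCAAT (or ATTGG), the cell cycle homology letters TTTGAA (or TTCAAA) and TTTAAA, the GC box GGGCGG (or CCGCCC) and the E2F letters TTGGCGC and TTCCCGC (or GCGCCAA and GCGGGAA), all sought on both strands.
Ccnb2, chr9:70328787-70329086, minus strand, GRCm39: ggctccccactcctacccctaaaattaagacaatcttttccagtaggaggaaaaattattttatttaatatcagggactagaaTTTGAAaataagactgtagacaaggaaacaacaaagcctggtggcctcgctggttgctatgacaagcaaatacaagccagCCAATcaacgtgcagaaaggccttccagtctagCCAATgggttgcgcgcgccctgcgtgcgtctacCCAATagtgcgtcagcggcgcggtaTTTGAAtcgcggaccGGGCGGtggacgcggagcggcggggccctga
Cdc20, chr4:118294491-118294790, minus strand, GRCm39: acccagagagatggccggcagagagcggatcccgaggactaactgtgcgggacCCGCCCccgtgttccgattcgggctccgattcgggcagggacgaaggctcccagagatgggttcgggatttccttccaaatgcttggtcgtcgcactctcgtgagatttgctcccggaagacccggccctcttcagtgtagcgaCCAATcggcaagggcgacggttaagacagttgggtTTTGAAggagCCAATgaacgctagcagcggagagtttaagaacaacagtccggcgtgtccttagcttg
Cenpe, chr3:134918074-134918373, plus strand, GRCm39: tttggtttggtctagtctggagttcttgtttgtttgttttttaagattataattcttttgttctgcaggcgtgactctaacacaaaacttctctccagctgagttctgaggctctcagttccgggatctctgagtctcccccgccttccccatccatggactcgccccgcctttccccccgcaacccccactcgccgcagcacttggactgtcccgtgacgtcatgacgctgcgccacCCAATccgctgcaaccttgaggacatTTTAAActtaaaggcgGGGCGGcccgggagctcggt
Cenpf, chr1:189420234-189420533, minus strand, GRCm39: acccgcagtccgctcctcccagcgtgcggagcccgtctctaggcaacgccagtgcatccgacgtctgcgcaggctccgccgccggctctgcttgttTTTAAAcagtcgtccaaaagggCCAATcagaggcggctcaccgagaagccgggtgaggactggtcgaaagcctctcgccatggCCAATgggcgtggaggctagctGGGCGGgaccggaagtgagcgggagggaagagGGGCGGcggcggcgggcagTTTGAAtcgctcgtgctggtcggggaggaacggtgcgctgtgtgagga
Ncaph, chr2:126975825-126976124, minus strand, GRCm39: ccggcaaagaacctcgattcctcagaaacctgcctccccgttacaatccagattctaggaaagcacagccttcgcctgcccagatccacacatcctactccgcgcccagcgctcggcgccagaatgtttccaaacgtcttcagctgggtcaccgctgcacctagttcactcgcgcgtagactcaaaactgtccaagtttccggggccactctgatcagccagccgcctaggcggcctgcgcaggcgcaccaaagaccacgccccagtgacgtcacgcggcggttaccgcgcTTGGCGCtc
Pttg1, chr11:43316759-43317058, minus strand, GRCm39: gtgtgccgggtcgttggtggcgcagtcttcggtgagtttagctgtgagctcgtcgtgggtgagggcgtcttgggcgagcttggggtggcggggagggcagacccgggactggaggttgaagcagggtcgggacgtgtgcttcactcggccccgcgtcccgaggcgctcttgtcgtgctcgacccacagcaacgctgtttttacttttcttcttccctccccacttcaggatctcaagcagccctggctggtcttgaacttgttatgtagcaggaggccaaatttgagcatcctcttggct

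The Ccnb2 window held 3 CCAAT boxes, which began at -87, -54 and -21 from the start, and cell cycle homology letters at -167 and at 5. In Cdc20, CCAAT boxes began at -53 and -8, on either side of cell cycle homology letters at -18. The Cenpe window held a CCAAT box at -12 and homology letters at 15, and the Cenpf window held CCAAT boxes at -132 and -71 and homology letters at -154 and 3. E2F letters at 42 were the only match in Ncaph. GC boxes began at 20 in Ccnb2, at -197 in Cdc20, at 31 in Cenpe and at -49 and -17 in Cenpf. None of CCAAT, the cell cycle homology letters and the GC box occurred in the windows of Ncaph and Pttg1. The Pttg1 start in RefSeq lies 4192 bases downstream of the first transcript start of the gene in GENCODE, so other starts of this gene lie outside the window shown.

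Among the 45 genes, 34 (75.6%) held a CCAAT box, against 42.7% of 9095 tested genes with an entry and 41.1% of all 27025 genes of the table. The cell cycle homology letters were present in 35 of 45 (77.8%), against 22.3% of tested genes and 30.6% of all genes. Both elements together were found in 31 of 45 (68.9%), against 9.13% and 12.2%. The GC box was present in 36 of 45 (80.0%), against 70.0% of tested genes and 38.2% of all genes. E2F letters were rarer, in 7 of 45 (15.6%), against 14.2% and 7.79%, while 19 of 32 DNA replication genes (59.4%) held them. The distance to tested genes was wide for CCAAT and the cell cycle homology letters and narrow for the GC box and E2F letters. Of the called genes described below, 27 of 35 with an entry held both elements, and of the uncalled ones 4 of 10 did. The GC box was held by 30 of the 35 called genes and by 6 of the 10 uncalled ones. These differences between called and uncalled genes were not tested. The shares depend on the window. In the 150 bases before the start alone, both elements were found in 18 of the 45 genes and 3.34% of tested genes. They were found there in 15 of the 35 called genes and in 3 of the 10 uncalled ones. In the same 150 bases the GC box was found in 57.8% of the 45 genes and 59.4% of tested genes. It was held there by 21 of the 35 called genes and by 5 of the 10 uncalled ones. Matches of different kinds overlapped at 5 places, CCAAT with E2F letters in Ccnb1 and in both windows of Ect2, CCAAT with the homology letters in Cdca8 and CCAAT with a GC box in Hmmr. A match of letters is a description of the window and not a bound site.

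**Figure D1:**
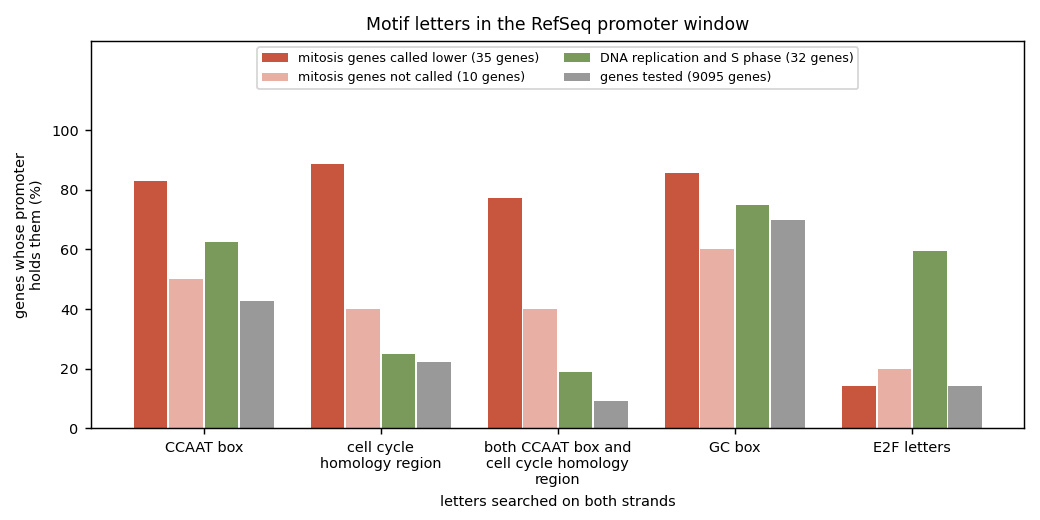
Share of genes (%) whose RefSeq promoter window holds each kind of letters, for mitosis genes called lower in dKO (35 with an entry), mitosis genes not called (10), DNA replication and S phase genes (32) and all tested genes (9095). CCAAT (82.9%), cell cycle homology letters (88.6%) and the GC box (85.7%) were most frequent in the called mitosis genes and E2F letters (59.4%) in the replication genes.

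Of the 54 mitosis genes, 43 were called lower in dKO than in CTR (79.6% of them, limma adjusted p under 0.05), and 0 were called higher. Over all tested genes 32.6% were called lower and 20.4% higher by the same rule. With a change of more than 1.5-fold in addition, 41 genes (75.9%) were lower, against 8.98% of tested genes, and 0 were higher by as much, against 8.92%. The stricter limit of a log2 fold change under -1.5 was passed by 1 gene, Ccnb2, and by 0.553% of tested genes. The median log2 fold change of the 54 genes was -0.86, with a range from -1.61 to 0.21, while the median over all tested genes was -0.10. A negative value was found for 53 genes and a positive one for Pttg1. In 30 genes the dKO mean was under 50% of the CTR mean, a count for which no share over all tested genes is at hand. With median-of-ratios scaling, 3061 tested genes were called lower and 3176 higher in place of 4065 and 2549, and 40 mitosis genes were lower and 1, Pttg1, was higher.

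**Figure D2:**
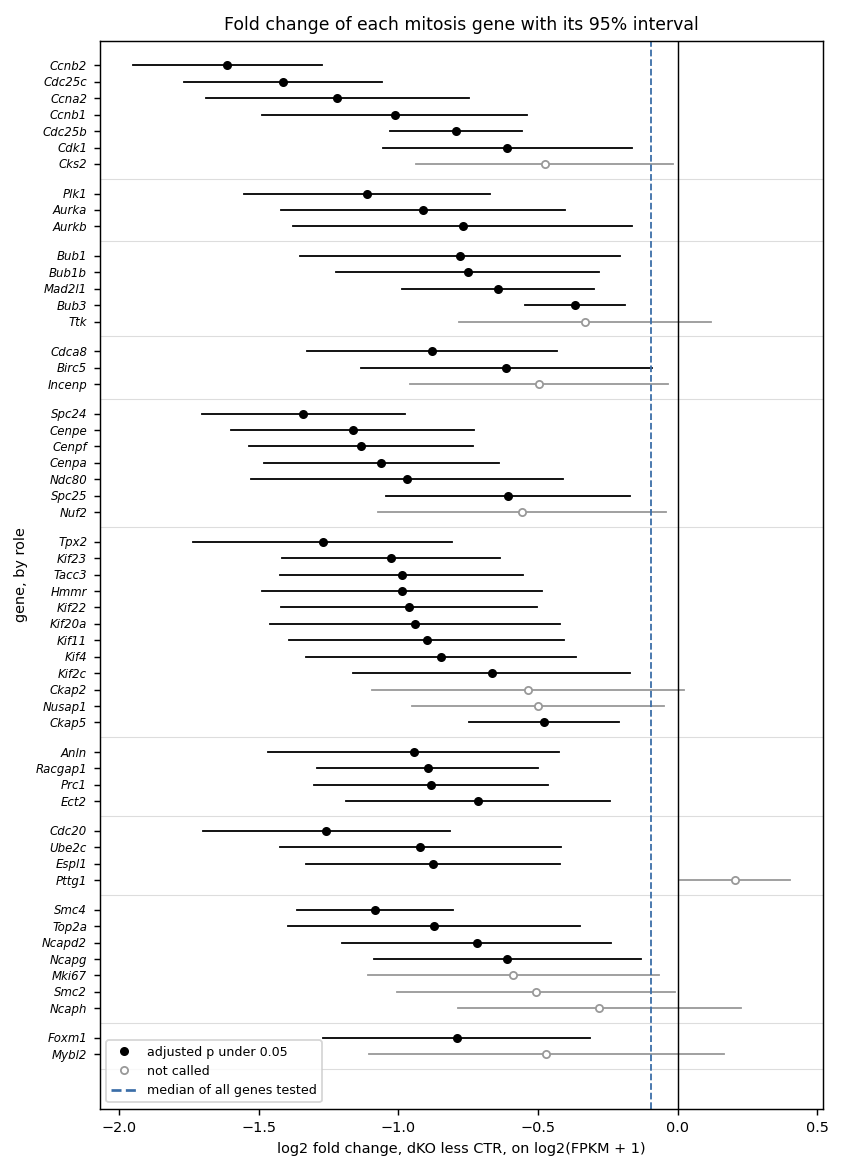
Log2 fold change of each of the 54 mitosis genes, dKO less CTR on log2(FPKM + 1), with its 95% interval from limma, grouped by role. Filled points mark the 43 genes with an adjusted p under 0.05, open points the 11 not called, and the dashed line the median of all tested genes at -0.10. Pttg1 is the only point to the right of 0.

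The groups overlapped in 39 genes. In 15 genes (27.8%, against 16.1% of tested genes) the highest dKO library was below the lowest CTR library, and in 0 the lowest dKO library was above the highest CTR library (against 11.3%). The 15 were Ccna2, Ccnb2, Cdc25b, Cdc25c, Plk1, Cenpa, Cenpe, Cenpf, Spc24, Kif23, Tpx2, Racgap1, Cdc20, Espl1 and Smc4. At least 3 of the 6 CTR libraries exceeded every dKO library in 52 genes, at least 4 did in 47 genes and at least 5 did in 33 genes. For these counts no share over all tested genes is at hand, so they only describe the mitosis genes. In most of them the overlap lay at the low end of the CTR group, which is described with the spread among controls further on.

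**Figure D3:**
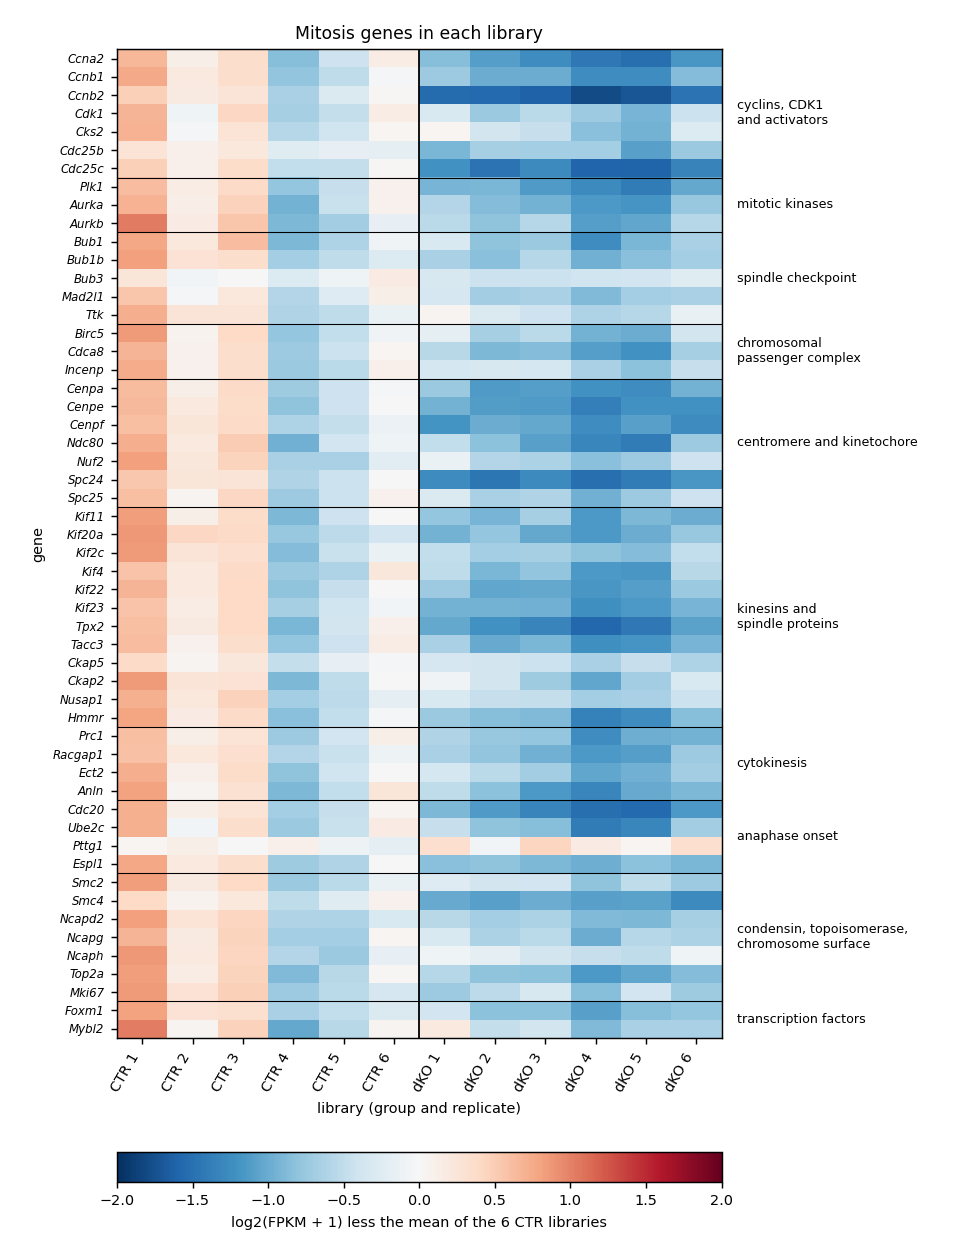
Log2(FPKM + 1) of each mitosis gene in each of the 12 libraries, less the gene's mean over the 6 CTR libraries, with genes in rows by role. Red is above and blue below the CTR mean. Most dKO cells of the map are blue, CTR 1 is the reddest column, and CTR 4 and CTR 5 are blue in nearly all rows.

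Cyclins, CDK1 and its activators included the largest falls. Of 7 genes, 6 were called lower, with a median log2 fold change of -1.01. Ccnb2, a B-type cyclin that activates CDK1, had the highest CTR level of the group, with a lowest, median and highest value of 30.1, 51.3 and 66.6 FPKM in CTR and of 13.0, 15.2 and 16.5 FPKM in dKO. The groups were far apart, and the lowest CTR library lay well above the highest dKO library. Its log2 fold change was -1.61 ± 0.16 (SE, limma adjusted p = 6.06e-06), and the mean fell by 69.6%. Cdc25c, a phosphatase that removes inhibitory phosphates from CDK1, ranged from 4.51 to 9.79 FPKM in CTR (median 7.14) and from 1.56 to 2.36 FPKM in dKO (median 1.94). Its log2 fold change was -1.41 ± 0.16 (SE, limma adjusted p = 2.14e-05), and its dKO mean was the smallest share of the CTR mean among all 54 genes, a fall by 72.5%. Ccna2, the cyclin of S phase and G2, was 22.0 ± 8.03 FPKM in CTR and 8.45 ± 1.56 FPKM in dKO (SD, n = 6). The highest dKO and the lowest CTR library of Ccna2 almost touched, both at 11.0 FPKM when rounded. Ccnb1 fell with a log2 fold change of -1.01, although transcripts of a processed copy, Ccnb1-ps, are 98.0% identical over 1303 bases and fragments may be shared. Cdc25b, which acts early in G2, fell by 0.79 on the log2 scale and had a narrow CTR spread of 7.62 to 11.3 FPKM. Cdk1 itself, the kinase, was 5.71 to 16.1 FPKM in CTR (median 9.89) and 4.63 to 7.62 FPKM in dKO (median 5.91). Cdk1 libraries overlapped, and its log2 fold change was -0.61 ± 0.21 (SE, limma adjusted p = 0.0246). Cks2, a small CDK-binding protein, had 18.3 to 45.4 FPKM in CTR and 13.9 to 28.3 FPKM in dKO and was not called (log2 fold change -0.48, limma adjusted p = 0.0759). A copy, Gm15452, is identical to Cks2 over 240 bases and averaged 14.0 FPKM, so the split of fragments between them is uncertain.

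**Figure D4:**
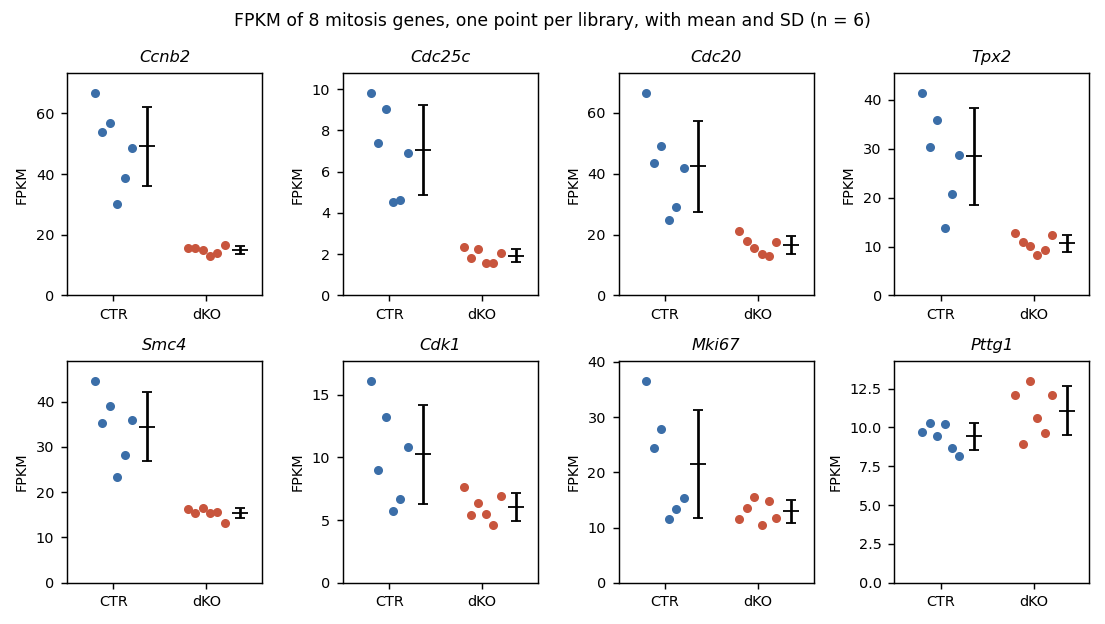
FPKM of 8 mitosis genes in each library on linear axes from 0, with the mean and SD of each group (n = 6) beside the points. Ccnb2, Cdc25c, Cdc20, Tpx2 and Smc4 show dKO libraries below all CTR libraries, Cdk1 and Mki67 overlap at the low CTR libraries, and Pttg1 has the narrowest CTR spread.

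All 3 mitotic kinases were called lower. Plk1, which drives mitotic entry and centrosome maturation, had the highest CTR level and the largest fall of the group. It ranged from 10.8 to 30.0 FPKM in CTR (median 20.8) and from 6.60 to 9.64 FPKM in dKO (median 8.54), without overlap, and its log2 fold change was -1.11 ± 0.20 (SE, limma adjusted p = 0.000618). Aurka, the Aurora kinase of spindle poles, was 17.2 ± 6.87 FPKM in CTR and 8.12 ± 1.46 FPKM in dKO (SD, n = 6), a log2 fold change of -0.91. Only 2 dKO libraries of Aurka lay below all CTR libraries. Aurkb, the Aurora kinase of the chromosomal passenger complex, was 11.3 ± 6.28 and 5.56 ± 1.11 FPKM (SD, n = 6), with a limma adjusted p = 0.0346. Its limma adjusted p reached 0.0781 among the alternative settings. Aurka exons overlap exons of Fam210b on the other strand over 984 bases, and the strand setting of the counting is not given in the sources used here.

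The spindle checkpoint, which holds anaphase until all kinetochores are attached, is covered by 5 genes. Of these, 4 were called lower, with a median log2 fold change of -0.64. Bub1 fell the most, from 7.75 ± 3.76 to 3.78 ± 1.03 FPKM (SD, n = 6, log2 fold change -0.78, limma adjusted p = 0.0254), with overlapping libraries. Bub3, which has functions outside mitosis as well, had the highest CTR level, 11.4 to 16.8 FPKM (median 13.8), against 10.1 to 11.7 FPKM in dKO (median 10.5). Its fall of 0.37 on the log2 scale was small, yet 5 of 6 dKO libraries lay below all CTR libraries and the limma adjusted p was 0.00259. Mad2l1 and Bub1b, whose products together inhibit CDC20, also fell, with log2 fold changes of -0.64 and -0.75. Ttk, the checkpoint kinase MPS1, was 1.56 to 5.39 FPKM in CTR and 1.53 to 3.03 FPKM in dKO and was not called (log2 fold change -0.33, limma adjusted p = 0.196).

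In the chromosomal passenger complex, which corrects wrong attachments, Cdca8 and Birc5 were called lower and Incenp was not. Cdca8, which encodes borealin, fell from 7.89 ± 3.03 to 3.65 ± 0.80 FPKM (SD, n = 6, log2 fold change -0.88, limma adjusted p = 0.00338). Birc5, survivin, had a log2 fold change of -0.61 with a limma adjusted p = 0.0466, close to the threshold. Incenp, the scaffold and the most abundant of the 3 per length, was 9.82 to 29.2 FPKM in CTR (median 18.4) and 9.25 to 13.4 FPKM in dKO (median 12.6), with a log2 fold change of -0.50 (limma adjusted p = 0.0662).

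Of 7 centromere and kinetochore genes 6 were called lower, with a median log2 fold change of -1.06. Within the NDC80 complex, which binds microtubules, Spc24 was 5.16 to 12.5 FPKM in CTR (median 9.18) and 2.27 to 3.16 FPKM in dKO (median 2.69), a log2 fold change of -1.34 ± 0.17 (SE, limma adjusted p = 3.82e-05). Spc25, its direct partner, was 5.03 to 14.1 FPKM in CTR (median 9.42) and 4.09 to 7.11 FPKM in dKO (median 5.44), a log2 fold change of -0.61 ± 0.20 (SE, limma adjusted p = 0.0230). The 2 partners thus had similar CTR levels, and the intervals of their log2 fold changes, -1.70 to -0.98 and -1.04 to -0.17, overlapped only at their ends, but the difference itself was not tested. Spc25 shares 3693 exon bases with Nostrin on the other strand, which averaged 5.98 FPKM. Ndc80 fell from 9.98 ± 4.33 to 4.35 ± 1.31 FPKM (SD, n = 6), and Nuf2, with 2.25 to 8.01 FPKM in CTR and 1.83 to 3.63 FPKM in dKO, was not called (log2 fold change -0.56, limma adjusted p = 0.0644). Cenpa, the centromeric histone variant, Cenpe, a kinetochore motor, and Cenpf, a kinetochore protein that builds up in G2, fell by 1.06, 1.16 and 1.13 on the log2 scale. The groups did not overlap in any of these 3.

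Among 12 kinesins and spindle proteins 10 were called lower, with a median log2 fold change of -0.92. Tpx2, the activator of Aurora A that nucleates spindle microtubules, had the highest CTR level and the largest fall. It was 13.8 to 41.3 FPKM in CTR (median 29.6) and 8.34 to 12.7 FPKM in dKO (median 10.6), a log2 fold change of -1.27 ± 0.22 (SE, limma adjusted p = 0.000340). Kif23, the kinesin of the spindle midzone, was the other gene without overlap and fell by 1.03 on the log2 scale. Kif11 (bipolar spindle), Kif20a (cytokinesis), Kif4 and Kif22 (chromosome arms) and Kif2c (microtubule depolymerisation) were called lower with log2 fold changes between -0.96 and -0.67. The exons of Kif20a share 2748 bases with Cdc23 on the other strand. Those of Tacc3 share 996 bases with Tmem129 and those of Kif4 share 852 bases with Pdzd11, also on the other strand. Tacc3 and Hmmr, which act on spindle microtubules, both had a log2 fold change of -0.99. Ckap5, a microtubule polymerase used in interphase too, overlapped between the groups, 19.4 ± 4.08 against 13.4 ± 1.30 FPKM (SD, n = 6, log2 fold change -0.48, limma adjusted p = 0.00620). Ckap2 (17.4 ± 7.69 and 11.1 ± 2.87 FPKM) and Nusap1 (6.85 ± 2.95 and 4.25 ± 0.50 FPKM) were not called, with limma adjusted p-values of 0.0979 and 0.0586.

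All 4 cytokinesis genes were called lower. Anln, an actin-binding protein of the cleavage furrow, had the highest CTR level and the largest fall, from 18.4 ± 7.70 to 8.53 ± 1.87 FPKM (SD, n = 6, log2 fold change -0.95, limma adjusted p = 0.00552). Racgap1 and Prc1 of the central spindle fell by 0.90 and 0.88 on the log2 scale, and Ect2, the exchange factor that activates RhoA, by 0.71. Racgap1 was the only one of the 4 without overlap between the groups.

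Of 4 genes of anaphase onset 3 were called lower. Cdc20, the activator of the anaphase-promoting complex, was 24.7 to 66.4 FPKM in CTR (median 42.8) and 13.1 to 21.3 FPKM in dKO (median 16.6), a log2 fold change of -1.26 ± 0.20 (SE, limma adjusted p = 0.000252). Espl1, separase, was 2.21 to 7.99 FPKM in CTR and 1.67 to 2.02 FPKM in dKO, without overlap. Ube2c, the ubiquitin-conjugating enzyme of the complex, fell by 0.92 on the log2 scale. Pttg1, which encodes securin, the inhibitor of separase, was the fourth. Its levels in CTR 1 to 6 were 9.73, 10.3, 9.43, 10.2, 8.68 and 8.17 FPKM, and in dKO 1 to 6 they were 12.1, 8.95, 13.0, 10.6, 9.65 and 12.1 FPKM. The 2 groups overlapped, and the log2 fold change of 0.21 was not called (limma adjusted p = 0.0750, exact two-sided permutation p = 0.0563). Pttg1 also had the narrowest CTR range of the 54 genes, with its highest library 1.26 times its lowest. Its exons share 220 bases with Slu7 on the other strand, which averaged 18.7 FPKM.

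Condensin, topoisomerase and chromosome surface genes included the most uncalled members, 3 of 7, with a median log2 fold change of -0.61. Smc4, an ATPase subunit of condensin, was 23.3 to 44.6 FPKM in CTR (median 35.6) and 13.3 to 16.4 FPKM in dKO (median 15.5), a log2 fold change of -1.08 ± 0.13 (SE, limma adjusted p = 2.58e-05). Smc2, the ATPase that pairs with it, was 7.44 to 24.4 FPKM in CTR (median 13.5) and 7.10 to 10.9 FPKM in dKO (median 9.42), with a log2 fold change of -0.51 ± 0.23 (SE, limma adjusted p = 0.0805). The intervals of this pair, -1.36 to -0.80 and -1.0 to -0.01, overlapped, and the difference was not tested. Ncapd2 and Ncapg were called lower with log2 fold changes of -0.72 and -0.61, whereas Ncaph, 3.07 to 11.5 FPKM in CTR and 3.83 to 5.44 FPKM in dKO, was not (log2 fold change -0.28, limma adjusted p = 0.329). Ncapg shares 2118 exon bases with Lcorl on the other strand, which averaged 1.53 FPKM. Top2a, which untangles sister chromatids, fell from 24.6 ± 10.8 to 12.1 ± 1.84 FPKM (SD, n = 6, log2 fold change -0.87, limma adjusted p = 0.00891). Mki67, the proliferation marker that coats mitotic chromosomes, was 11.5 to 36.6 FPKM in CTR (median 19.9) and 10.5 to 15.6 FPKM in dKO (median 12.6). Its log2 fold change of -0.59 ± 0.24 missed the threshold (SE, limma adjusted p = 0.0547, exact two-sided permutation p = 0.0736).

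Of the 2 transcription factors, Foxm1, which activates G2 and mitosis genes, fell from 9.88 ± 4.32 to 4.96 ± 1.00 FPKM (SD, n = 6, log2 fold change -0.79, limma adjusted p = 0.00930). Mybl2, B-MYB of the MuvB complex, was 0.964 to 7.10 FPKM in CTR and 1.17 to 3.56 FPKM in dKO and was not called (log2 fold change -0.47, limma adjusted p = 0.194). Mybl2 had the widest spread among controls of all 54 genes, with its highest CTR library 7.36 times its lowest.

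The CTR libraries differed from each other in these genes far more than in other genes. The highest CTR library was 3.05 times the lowest in the median mitosis gene, against 1.45 times in the median tested gene. Among dKO libraries the same ratio was 1.55, against 1.46 in the median tested gene. The median coefficient of variation was 39.5% in CTR and 17.0% in dKO, where all tested genes gave 13.8% and 14.2%. The coefficient was larger in CTR than in dKO for 53 of the 54 genes, against 47.5% of tested genes. In these genes the dKO group thus had both the lower level and the narrower range. The narrower dKO range was not particular to them. For the summed DNA replication genes described below, the highest library was 2.94 times the lowest in CTR and 1.66 times in dKO. The means of these sums were 304 and 255 FPKM.

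Most of these genes shared the ends of the order of the CTR libraries. CTR 1 was the highest CTR library in 53 of 54 genes (21.2% of tested genes) and CTR 4 the lowest in 50 (31.1% of tested genes). The order from highest to lowest CTR 1, CTR 3, CTR 2, CTR 6, CTR 5, CTR 4 occurred in 34 of the 54 genes, and Pttg1, with CTR 2 and CTR 4 highest, did not follow it. Summed over the 54 genes, CTR 1 to 6 held 1130, 764, 886, 405, 498 and 689 FPKM, and dKO 1 to 6 held 436, 372, 367, 296, 313 and 382 FPKM. By this sum, dKO 1 lay above CTR 4 and all other dKO libraries lay below each CTR library. Within dKO, dKO 1 was highest in 39 genes (32.8% of tested genes) and dKO 4 lowest in 33 (22.9% of tested genes). The summed endothelial markers ran the other way among controls at the ends, with 211 FPKM in CTR 1 and 348 FPKM in CTR 4, and the summed lung epithelial markers were 95.2 FPKM in CTR 1 and 523 FPKM in CTR 4. The part of these differences in the order of the CTR libraries was not tested. Without CTR 1 the median log2 fold change of the mitosis genes was -0.73 and 39 were called lower, and without CTR 4 it was -1.0 and 51 were called lower.

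The order of libraries was common to the group, so each gene was also set against the mean log2 FPKM of all 54 genes in the same library, as a description without a test. On this relative scale some genes must lie on either side. All dKO values were under all CTR values in 11 genes, Cdc25c, Ccnb2, Spc24, Cenpf, Cenpe, Tpx2, Kif23, Ccna2, Cdc20, Cenpa and Ccnb1, with differences from -0.88 for Cdc25c to -0.15 for Ccnb1 in log2 units. All dKO values were over all CTR values in 4 genes, Nusap1 (0.35), Incenp (0.41), Ttk (0.49) and Ncaph (0.62). The other 39 overlapped. On this scale, shares over all tested genes are not at hand for these counts. Ccnb2 lay 1.94 to 2.43 log2 units above the mean of the 54 genes in CTR and 1.25 to 1.58 above it in dKO, so its relative level was lower in each dKO library. Ncaph lay between -1.23 and -0.59 log2 units of that mean in CTR and between -0.36 and -0.09 in dKO. The smallest group differences in size were those of Top2a (0.01), Bub1 (0.02), Cdc25b (0.02) and Foxm1 (0.03). A small difference did not mean a steady relative level, since Cdc25b ranged from -0.62 to 0.38 within CTR.

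A second list of 50 G2 and mitosis genes gave 36 called lower and 0 higher among 47 tested, and the median log2 fold change was -0.80. Its largest falls were in Spag5 (9.39 to 2.23 FPKM), G2e3 (7.51 to 2.40 FPKM) and Ska1 (4.19 to 1.08 FPKM), which act at the spindle, as a ubiquitin ligase and at the kinetochore. Of 38 tested DNA replication and S phase genes, 5 were called lower and 0 higher, where 32.6% and 20.4% of all tested genes were. For these genes the median log2 fold change was -0.19, and the largest falls were in the polymerase genes Pold1 (-0.64) and Pola1 (-0.58) and in Tyms (-0.57). The CTR libraries were nevertheless spread in the same way, with summed levels of 512, 288, 362, 174, 202 and 286 FPKM in CTR 1 to 6. In dKO 1 to 6 these sums were 339, 238, 269, 204, 220 and 262 FPKM, and all 6 lay inside the CTR range. A negative log2 fold change was found in 30 of the 38 genes, against 7459 of all 12467 tested genes. The replication genes shared the spread of the controls, but none of their dKO sums lay below the wide CTR range. The difference between the lists was not tested.

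**Figure D5:**
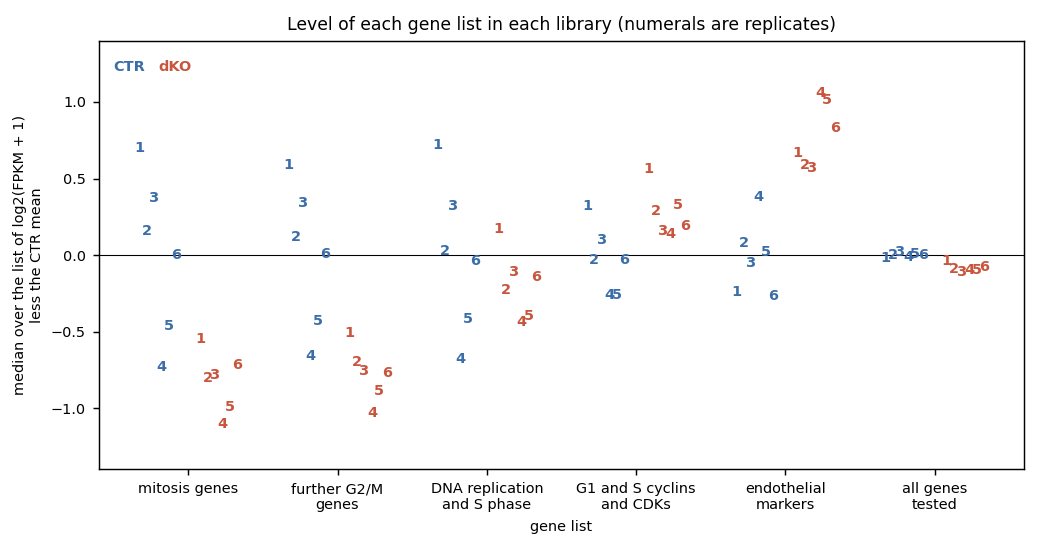
Median over each gene list of log2(FPKM + 1) less the CTR mean, for each library, with blue numerals for CTR replicates and red ones for dKO replicates. In mitosis genes and further G2/M genes the dKO libraries lie from -1.10 to -0.51, in DNA replication genes they lie between -0.44 and 0.17 within the CTR range of -0.68 to 0.72, and endothelial markers lie higher in dKO.

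Of 9 cyclin and kinase genes of G1 and S, 4 were called higher and 0 lower, beside 20.4% and 32.6% of all tested genes. Ccnd1, cyclin D1, was 28.9 FPKM on average in CTR and 54.9 FPKM in dKO (log2 fold change 1.07, limma adjusted p = 0.00700), with overlap, because its highest CTR library reached 63.2 FPKM. Cdk6 (0.59) and Ccnd3 (0.49) rose without overlap. Among 11 CDK inhibitors and brakes, 1 was called higher and 4 lower, and the latter share is near the 32.6% of all tested genes. Cdkn1a, the inhibitor p21, was 92.7 to 172 FPKM in CTR and 195 to 357 FPKM in dKO (log2 fold change 0.98, limma adjusted p = 0.000246), and the groups did not overlap. Gadd45a, a stress-induced gene that restrains CDK1, fell from 38.9 to 13.0 FPKM (log2 fold change -1.42), Pkmyt1, which phosphorylates CDK1, from 5.91 to 3.14 FPKM, and Cdkn2c from 22.3 to 13.9 FPKM.

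Median log2 fold changes of the regulators and partners of the mitosis genes lay between -0.31 and -0.20. Of 17 tested E2F, RB and DREAM-MuvB genes, 5 were lower and 2 higher, shares that do not exceed the 32.6% and 20.4% of all tested genes. Tfdp2 (-0.48) and Lin52 (-0.47), a MuvB subunit, and Tfdp1 (-0.44) fell, while E2f1 (0.44) and Rb1 (0.34) rose. Of 15 anaphase-promoting complex genes, 7 were lower and 1 higher (32.6% and 20.4% of all tested genes), from Fbxo5, an inhibitor of the complex (-0.67), Cdc23 (-0.57) and Anapc5 (-0.35) to Anapc2 (0.24). Of 11 cohesin genes, 7 were lower and 0 higher against the same shares, led by Pds5b (-0.56), Smc1a (-0.51) and Rad21 (-0.46). The summed cohesin level was 164 to 195 FPKM in CTR and 134 to 150 FPKM in dKO, without overlap and without the wide CTR range of the mitosis genes.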

How the data were processed

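The deposited values are FPKM per gene, made by the authors from paired RNA-seq reads of 12 MLEC libraries, which were trimmed with Trimmomatic, aligned to mm39 with STAR and kept where uniquely mapped. The submitters' processing notes also name Bowtie2 2.2.3, HISAT2 2.1.0, TopHat2 and DESeq2. The counting program, annotation and strand setting are not given in the sources used here. The knockout columns carry a tamoxifen name and were tied to the dKO group through the labels by elimination.

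Genes that reached 1 FPKM in 6 or more of the 12 libraries (12467 of 28689) were tested on log2(FPKM + 1) with limma 3.58.1 in R 4.3.3 (trended variance, Benjamini-Hochberg adjustment over all tested genes, threshold 0.05). Fold changes on this scale understate those of low genes. Single values were tested with an exact two-sided permutation test over 924 splits, whose smallest p is 0.00216. Fragments were recovered from the FPKM steps, with whole values within 0.005 for all 28689 genes, and 1 fragment on a 2 kb gene was worth 0.0279 to 0.0322 FPKM. Within each group, no library repeated another (chi-square per degree of freedom 11.3 to 100 over 30 pairs within groups). Near-identical copies were sought with BLAST 2.17.0 (at least 95% identity over at least 150 bases). Exons shared with other genes were looked up too, and the copies and overlaps named above are only some of those found. Any of the 54 genes could be named. By rule, those with the highest CTR mean and the largest fall or rise in each role, and those not called, were described in full, and the others given in full were chosen after their values were seen. From each further cell cycle list at most the 3 called genes with the largest change in each direction were named. The members and lists were chosen with earlier results of these data known. The fit was checked on simulated data.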

Additional observations from a re-analysis of the deposited data

Results flagged for a closer look

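Smc4 in dKO had 1 library apart from the rest. The lowest dKO library, replicate 6, held 13.3 FPKM, the nearest other library 15.4 FPKM and the highest 16.4 FPKM, so the gap was 0.665 of the range, past the 95% limit of Dixon's test for 6 libraries. Of 108 groups checked in the 54 genes, 1 passed this limit, and chance alone would pass about 5.4.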

How the results depend on the processing

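Of the 43 genes called lower, 36 were called in every alternative that tested them, and 7 were lost in some. Birc5 was lost in 14 of 24, Ncapg in 12 of 23, Aurkb in 11 of 24, Bub1 and Kif2c in 6 of 23 and Cdk1 and Spc25 in 4 of 24. Of the 11 uncalled genes, 10 were called in at least 1 alternative, the exception being Ncaph. The log2 fold change stayed negative in all alternatives for 53 genes and positive for Pttg1. With FPKM of at least 5 in at least 6 libraries, 35 of the 54 genes were tested, 28 were called lower and 26 lower by more than 1.5-fold, since fewer genes entered. Pttg1 was the 1 gene called higher with quantile normalization, with median-of-ratios scaling, without dKO replicate 2, and with limma-voom on recovered fragments under median-of-ratios scaling. The limma-voom settings were added once the data had been seen. Leaving out 1 library gave 36 (without CTR replicate 3) to 51 (without CTR replicate 4) genes called lower, 31 (without CTR replicate 1) to 49 lower by more than 1.5-fold, 0 to 1 higher, and a median log2 fold change from -1.0 (without CTR replicate 4) to -0.73 (without CTR replicate 1). Over all tested genes, same-numbered CTR and dKO libraries did not deviate together throughout (correlations -0.108 to 0.565). The numbers were therefore not taken as pairs. Summed over the mitosis genes and over the DNA replication genes, however, replicate 1 was highest and replicates 5 and 4 were lowest in both groups. A replicate block gave 52 genes called lower in place of 43, all but Pttg1 and Ncaph. Most of the 11 uncalled genes thus depend on this choice, and whether the numbers mark pairs is not known. Of the 6 CTR libraries, replicates 1 and 4 correlated best with their own number. Genes under about 1 FPKM are limited by few fragments.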
